A study of Mus musculus with 12 samples.

Results

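Genes that decide where a B cell goes and whether it stays there were followed across 4 culture conditions. The 9 genes are the chemokine receptors Ccr7, Cxcr5, Cxcr4 and Ccr6, the oxysterol receptor Gpr183 (also called EBI2), the sphingosine-1-phosphate (S1P) receptors S1pr1 and S1pr4, the surface protein Cd69 and the transcription factor Klf2. The rule names the members by gene symbol and uses no measured value, although the set was proposed with earlier results of these data known. These 9 of the 22561 genes in the count table all remained among the 9431 genes with enough counts to be tested.

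Follicular (FO) B cells were sorted from the spleens of 10-week-old wild-type C57BL/6 mice by their surface markers, among them B220 high, AA4.1-, CD23+ and CD21 intermediate. RNA was sequenced from 12 samples, 3 from each condition: cells left unstimulated, or given IFNα (a type I interferon), CpG (an unmethylated DNA oligonucleotide, ODN1826, that activates Toll-like receptor 9) or CpG plus IFNα for 12 h. The dose of CpG in the samples that also received IFNα is given differently in 2 places of the study's text, so a possible difference in dose and the addition of IFNα cannot be told apart in comparisons of CpG plus IFNα with CpG, the interaction included. No genotype, transgene or other agent distinguished the groups. The samples of a group are labelled as replicates, and a barcode list numbers the wild-type samples of each group 1 to 3, but no source used here says whether a number marks a mouse, so the p-values below measure the spread between these samples, which may in part be technical. Whether the unstimulated cells were also kept in culture for 12 h is not given in the sources used here. Sorting, culture and stimulus therefore cannot be told apart in comparisons with that group, the interaction included.

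A lymphocyte moves through the spleen and lymph nodes by following gradients of chemokines, oxysterols and S1P. CXCR5 draws B cells into follicles toward CXCL13, CCR7 draws them toward CCL19 and CCL21 at the edge of the T cell zone, and EBI2 guides activated B cells to the outer follicle along oxysterol gradients. S1PR1 lets lymphocytes leave for the blood along the S1P gradient, CD69 binds S1PR1 and takes it off the cell surface, and KLF2 is a transcription factor of resting lymphocytes known to drive S1pr1.

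Values are unique molecular identifier (UMI) counts per gene, given here as normalized CPM, the share of a library's counts put on a common total after correction of the library size. The libraries held between 922450 and 1103064 counts for unstimulated, 1067324 to 1689570 for IFNα, 1393018 to 1985810 for CpG and 1884673 to 2923865 for CpG plus IFNα samples. A gene was called higher or lower where the adjusted p of edgeR's quasi-likelihood test (Benjamini-Hochberg over the 9431 genes) was under 0.1 and the log2 fold change was beyond 1 in either direction. Because the values are shares of a library, they do not give molecules per cell, and in such bulk samples fewer cells of a type and less RNA per cell cannot be told apart. The interferon-stimulated genes, a check of the treatment, summed to 354.1 to 526.8 normalized CPM in unstimulated, 6496 to 7715 in IFNα, 78.41 to 114.2 in CpG and 2214 to 2339 in CpG plus IFNα samples. Markers of the sorted cells were present in each group but did not hold their level. Of 12 B cell marker genes, all tested, 2 were called lower with IFNα, 9 with CpG and 10 with CpG plus IFNα, where 4.07%, 25.5% and 25.6% of all tested genes were called lower. Fcer2a, which encodes the sort marker CD23, averaged 1227 normalized CPM in unstimulated, 244 in IFNα, 21.3 in CpG and 8.15 in CpG plus IFNα samples. Cr2, which encodes CD21, averaged 412.5, 81.5, 32.8 and 14.02 in the same order, and the IgD gene Ighd averaged 3004, 2997, 989.2 and 883.7. Their part in the results below was not tested. The immediate-early genes, which respond within minutes to handling or signals, stood highest in unstimulated cells, where their summed level was 7940 to 11130 normalized CPM, compared with 2309 to 2456 in IFNα, 929.5 to 990.3 in CpG and 1086 to 1149 in CpG plus IFNα samples. Of these genes, 16 of the 18 tested were called lower with IFNα and 17 of 18 with CpG, to be read against the same shares of all tested genes. Their part in the results below was not tested.

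**Figure D1:**
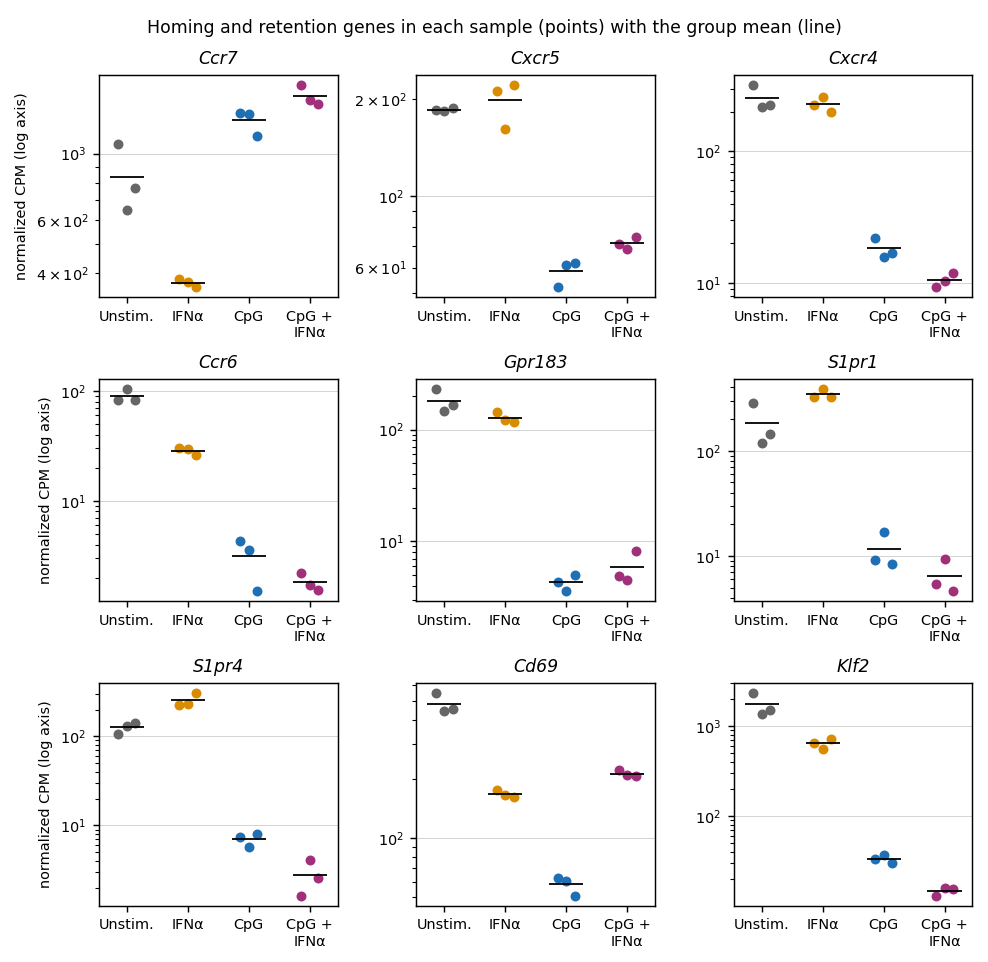
Normalized CPM of the 9 genes (log axis, a scale of its own in each panel) in the 12 samples; points are samples, horizontal lines are group means, and the x axis gives the group. Klf2 ran from 2340 at the highest unstimulated sample to 13.09 at the lowest sample with CpG plus IFNα, whereas Ccr7 was highest with CpG plus IFNα.

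With CpG, 8 of the 9 genes fell and Ccr7 did not. No member was called higher by edgeR or by DESeq2, although the unadjusted p of Ccr7, with a positive fold change, was under 0.05, against 20.1% of all tested genes called higher and 25.5% called lower. The median log2 fold change of the members was -4.02, and that of all tested genes was -0.028. With CpG plus IFNα the same count was obtained against unstimulated cells, 8 lower and none higher (Ccr7 again with a positive fold change at an unadjusted p under 0.05), where 20.3% of tested genes were called higher and 25.6% lower, and the median of the members was -4.73. IFNα alone gave 4 members lower and none higher (also none by DESeq2; at an unadjusted p under 0.05, S1pr1 and S1pr4 had positive fold changes), with 4.56% of tested genes called higher and 4.07% lower.

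**Figure D2:**
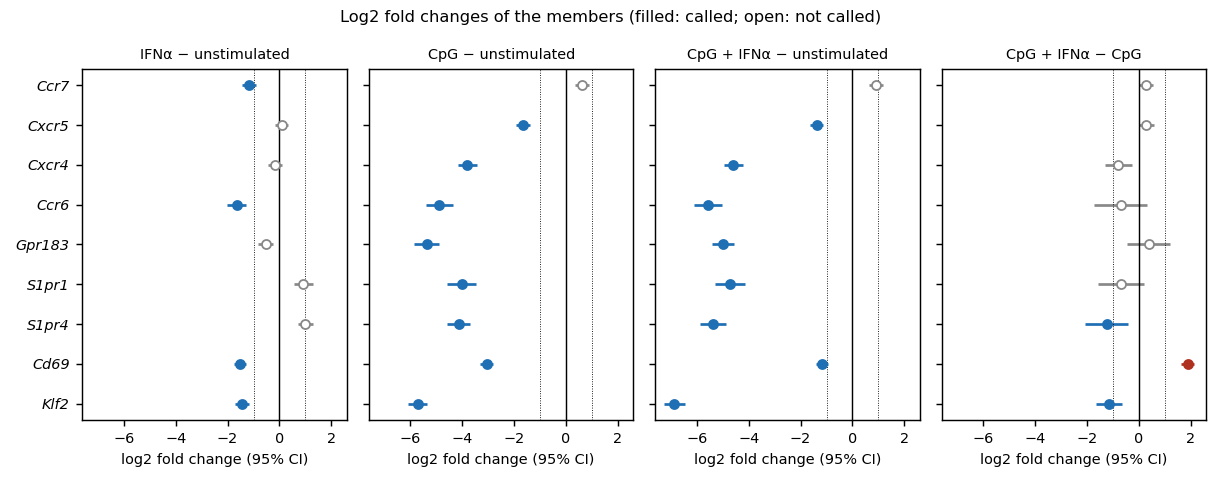
Log2 fold changes of the 9 genes in 4 comparisons (points) with approximate 95% confidence intervals (bars) computed back from the edgeR test. The bars can be too narrow for large falls that leave few counts. Filled points were called and open points were not, and dotted lines mark a log2 fold change of 1 in either direction. Against unstimulated cells Ccr7 lies above 0 with CpG (0.63) and with CpG plus IFNα (0.90) while the other 8 lie below, and Cd69 is the member called higher in CpG plus IFNα over CpG.

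The promoters of several members are shown because the members that moved together in the CpG samples include a transcription factor, Klf2, whose family binds the letters CACCC. RefSeq promoters (build GRCm38.p6, 250 bases before to 50 after the annotated start, 5′ to 3′ on the strand of the gene) were matched for 5 of the 9 members: Cxcr4, Ccr6 (with 2 starts), Gpr183, S1pr4 and Klf2. Capitals mark the matched letters.
Klf2, chr8:72318812-72319111, plus strand, KLF box on the opposite strand at -19 from the start: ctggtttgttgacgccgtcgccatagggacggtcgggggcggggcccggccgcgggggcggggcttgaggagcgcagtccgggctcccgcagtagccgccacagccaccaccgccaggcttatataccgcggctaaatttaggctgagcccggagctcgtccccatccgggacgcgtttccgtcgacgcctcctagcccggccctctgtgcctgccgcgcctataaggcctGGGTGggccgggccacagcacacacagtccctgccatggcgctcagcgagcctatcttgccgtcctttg
S1pr4, chr10:81500088-81500387, minus strand, KLF box on the opposite strand at -107: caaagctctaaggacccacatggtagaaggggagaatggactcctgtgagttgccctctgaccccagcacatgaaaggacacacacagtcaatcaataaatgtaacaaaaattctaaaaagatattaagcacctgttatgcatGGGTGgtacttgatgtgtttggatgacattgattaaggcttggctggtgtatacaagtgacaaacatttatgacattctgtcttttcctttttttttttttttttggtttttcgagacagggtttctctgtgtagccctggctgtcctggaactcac
Cxcr4, chr1:128592250-128592549, minus strand, KLF box at -219: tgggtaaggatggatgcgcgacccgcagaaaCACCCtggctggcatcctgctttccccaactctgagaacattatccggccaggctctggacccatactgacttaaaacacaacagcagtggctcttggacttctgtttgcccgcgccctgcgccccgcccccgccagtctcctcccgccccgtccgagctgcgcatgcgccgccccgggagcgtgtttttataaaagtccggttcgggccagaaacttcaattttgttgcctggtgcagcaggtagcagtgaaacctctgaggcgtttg
Ccr6, chr17:8242276-8242575, plus strand, its second start, with a kB site at -80: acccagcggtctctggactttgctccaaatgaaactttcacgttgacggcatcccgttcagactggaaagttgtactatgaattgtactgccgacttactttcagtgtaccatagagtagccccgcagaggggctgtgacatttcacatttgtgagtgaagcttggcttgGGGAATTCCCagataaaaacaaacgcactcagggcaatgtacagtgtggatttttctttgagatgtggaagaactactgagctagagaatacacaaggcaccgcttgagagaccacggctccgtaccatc
The 5-letter KLF box CACCC, searched on both strands, was found in 3 of these 5 genes and in 57.5% of the 32851 RefSeq mouse promoters of the same length, so a match is common. The 10-letter kB site, named here without its letters, was found in 5.8% of promoters and among the members in the second promoter of Ccr6, where its letters read the same on both strands. The FOXO site TGTTTAC (3.6% of promoters) and the core of the interferon-stimulated response element, GAAA, any 2 letters, GAAA (3.4%), were in none of the windows of these 5 genes. These matches describe the letters of the windows and carry no measurement of binding.

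Ccr7 lies on the minus strand of chromosome 11 (99144196 to 99155077, GRCm38). Its level was 1081, 649.3 and 769.5 normalized CPM in unstimulated cells and 381.4, 372.1 and 357.9 with IFNα. It was 1372, 1362 and 1150 with CpG and 1701, 1508 and 1469 with CpG plus IFNα. Each sample with CpG was above each sample without it, and the 4 groups did not overlap. IFNα alone gave a log2 fold change of -1.17 (SE 0.14, adjusted p = 3.09e-08 by edgeR's quasi-likelihood test). This call depended on the unstimulated sample of 1081: without unstimulated replicate 1 the log2 fold change was -0.94 and the gene was no longer called. CpG gave a log2 fold change of 0.63 (SE 0.13, adjusted p = 7.57e-05, edgeR), which stayed under the fold required for a call, and CpG plus IFNα gave 0.90 (SE 0.13, adjusted p = 2.76e-07), or 1.15 without unstimulated replicate 1, which would be called. Between CpG plus IFNα and IFNα alone the difference was 2.07 on the log2 scale, a 4.21-fold higher level (adjusted p = 5.24e-15, edgeR). IFNα added to CpG gave 0.27 (95% confidence interval 0.01 to 0.53, adjusted p = 0.196).

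Cxcr5 (chromosome 9, 44511787 to 44561877, minus strand) encodes the receptor that takes B cells into follicles. Its level was 184.7, 184.0 and 188.0 normalized CPM in unstimulated samples and 211.9, 161.7 and 222.1 with IFNα. The samples with CpG read 52.19, 61.30 and 61.90, and those with CpG plus IFNα 70.91, 68.65 and 74.52. Unstimulated and IFNα samples overlapped, and all 6 samples with CpG were lower than the 6 without it. Cxcr5 fell 3.17-fold with CpG (log2 fold change -1.66, SE 0.14, adjusted p = 1.03e-12, edgeR) and 2.605-fold with CpG plus IFNα (-1.38, SE 0.13, adjusted p = 1.97e-11). Its change was the smallest of the 8 members called lower with CpG. IFNα alone gave 0.09 (95% confidence interval -0.16 to 0.33), and IFNα added to CpG 0.28 (0.00 to 0.56, adjusted p = 0.212).

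Because Ccr7 and Cxcr5 point B cells to neighbouring zones, their counts were also divided by each other within each library, which removes the library scaling. The ratio of Ccr7 to Cxcr5 counts was 5.85, 3.53 and 4.09 in unstimulated cells and 1.8, 2.3 and 1.61 with IFNα. It rose to 26.3, 22.2 and 18.6 in the CpG samples and stood at 24, 22 and 19.7 with CpG plus IFNα. The ratio with CpG overlapped that with CpG plus IFNα, and both lay above every sample without CpG. The ratios are given as a description, without a test.

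Cxcr4, the receptor for CXCL12 (chromosome 1, 128588199 to 128592293, minus strand), read 321.2, 218.2 and 226.8 normalized CPM in unstimulated cells. IFNα samples read 226.0, 259.0 and 199.9 and overlapped them, with a log2 fold change of -0.16 (95% confidence interval -0.43 to 0.11). With CpG the values were 22.1, 15.68 and 16.97, and with CpG plus IFNα they were 9.27, 10.35 and 11.82. All 3 samples with both agents were lower than all 3 with CpG alone. Cxcr4 fell 13.9-fold with CpG (log2 fold change -3.80, SE 0.18, adjusted p = 8.1e-19, edgeR) and 24.2-fold with CpG plus IFNα (-4.60, SE 0.18, adjusted p = 1.04e-20). Between CpG plus IFNα and CpG the log2 fold change was -0.80 (SE 0.26, adjusted p = 0.0418), short of the fold required for a call.

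Ccr6 (chromosome 17, 8236043 to 8257141, plus strand) encodes the receptor for CCL20 and was the member that IFNα alone lowered most. Unstimulated samples held 82.81, 104.8 and 83.83 normalized CPM and IFNα samples 30.27, 29.79 and 25.95. CpG samples held 4.30, 3.56 and 1.498, which are 7, 5 and 3 counts, and those with CpG plus IFNα 2.18, 1.73 and 1.54, which are 4, 5 and 3 counts. The first 3 groups were separate in every sample, and the last 2 overlapped. Ccr6 fell 3.14-fold with IFNα (log2 fold change -1.65, SE 0.18, adjusted p = 9.42e-09, edgeR), 29.4-fold with CpG (-4.88, SE 0.26, adjusted p = 3.2e-17) and 48.0-fold with both (-5.59, SE 0.27, adjusted p = 1.15e-18). At these few counts a difference between CpG plus IFNα and CpG was not detectable (-0.71, 95% confidence interval -1.74 to 0.32).

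Gpr183, the oxysterol receptor EBI2 (chromosome 14, 121952551 to 121965195, minus strand), stood at 232.0, 147.6 and 166.8 normalized CPM in unstimulated cells and at 144.3, 121.0 and 117.5 with IFNα. The CpG samples held 4.30, 3.56 and 4.99 and those with CpG plus IFNα 4.91, 4.49 and 8.22. All IFNα samples were lower than all unstimulated ones, by a log2 fold change of -0.53 (SE 0.15, adjusted p = 0.00794, edgeR) that was under the fold for a call. The CpG and CpG plus IFNα samples overlapped and lay far below both. Gpr183 fell 41.2-fold with CpG (log2 fold change -5.36, SE 0.24, adjusted p = 2.16e-19) and 31.6-fold with both (-4.98, SE 0.21, adjusted p = 6.07e-20). The log2 difference that IFNα made in the presence of CpG was 0.38, with a 95% confidence interval from -0.44 to 1.21.

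S1pr1, the egress receptor (chromosome 3, 115710433 to 115715072, minus strand), was the member that varied most, relative to its mean, among the unstimulated samples. They read 283.0, 117.7 and 144.7 normalized CPM. IFNα samples were all higher, at 322.9, 387.3 and 325.1. CpG samples held 9.21, 17.11 and 8.49, and samples with both agents 5.46, 9.31 and 4.63. The last 2 groups overlapped, and neither reached any sample without CpG. IFNα alone gave a log2 fold change of 0.92 (SE 0.18, adjusted p = 0.000236, edgeR), just under the fold for a call, and 1.40 without unstimulated replicate 1, which would be called. S1pr1 fell 16.3-fold with CpG (-4.02, SE 0.27, adjusted p = 1.35e-14), 26.5-fold with both against unstimulated cells (-4.73, SE 0.28, adjusted p = 3.31e-16) and 50.1-fold with both against IFNα alone (-5.65, SE 0.26, adjusted p = 6.66e-19).

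S1pr4, a second S1P receptor (chromosome 10, 81497747 to 81500132, minus strand), had a like order of groups. It stood at 106.5, 130.5 and 143.0 normalized CPM in unstimulated cells and at 225.0, 228.0 and 306.0 with IFNα. The values were 7.37, 5.70 and 7.99 with CpG and 1.64, 4.14 and 2.57 with CpG plus IFNα. None of the 4 groups overlapped. IFNα alone gave a log2 fold change of 1.0 (SE 0.14, adjusted p = 7.29e-07, edgeR), which before rounding lay just under the limit for a call, and in 10 of 12 fits that each left out a sample it would be called, at 1.004 to 1.083. S1pr4 fell 17.5-fold with CpG (-4.13, SE 0.22, adjusted p = 3.06e-17), 41.4-fold with both (-5.37, SE 0.24, adjusted p = 2.46e-19) and 82.7-fold with both against IFNα alone (-6.37, SE 0.22, adjusted p = 3.17e-22). It was also called lower in CpG plus IFNα than in CpG (-1.24, SE 0.41, adjusted p = 0.0435), a call that was lost without CpG replicate 1 (-1.22, adjusted p = 0.105), CpG replicate 3 (-1.12, adjusted p = 0.173) or CpG plus IFNα replicate 1 (-1.01, adjusted p = 0.147).

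Cd69 (chromosome 6, 129267325 to 129275436, minus strand), commonly used as an early activation marker, was highest in unstimulated cells, at 547.8, 441.8 and 456.2 normalized CPM. It stood at 175.6, 164.8 and 161.8 with IFNα, at 62.62, 60.59 and 50.92 with CpG and at 222.0, 208.4 and 208.1 with CpG plus IFNα. The 4 groups were separate in every sample, with CpG lowest. Cd69 fell 2.89-fold with IFNα (log2 fold change -1.53, SE 0.12, adjusted p = 1.21e-12, edgeR), 8.35-fold with CpG (-3.06, SE 0.13, adjusted p = 4.97e-20) and 2.27-fold with both (-1.18, SE 0.11, adjusted p = 2.28e-11). Relative to CpG alone, CpG plus IFNα raised it 3.68-fold (1.88, SE 0.13, adjusted p = 9.77e-14). Relative to IFNα alone, CpG plus IFNα gave 0.35 (adjusted p = 0.00795), under the fold for a call. As given above, the summed immediate-early genes were also highest in unstimulated and lowest in CpG samples. Their sum was higher with IFNα alone than with both agents, and it includes Btg2, at a mean of 750.6 and 58.41 normalized CPM. Gene by gene, 8 of the 18 tested were called lower and 2 higher with both agents than with IFNα alone. Of all tested genes, 25.5% were called lower and 18.7% higher there. The part of the immediate-early genes in the values of Cd69 was not tested.

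Since CD69 and S1PR1 oppose each other at the cell surface, their counts were compared within each library. Cd69 counts divided by S1pr1 counts gave 1.94, 3.75 and 3.15 in unstimulated cells and 0.544, 0.425 and 0.498 with IFNα, so that S1pr1 exceeded Cd69 in IFNα samples. The ratio was 6.8, 3.54 and 6 with CpG and 40.7, 22.4 and 45 with CpG plus IFNα. The last group lay above all other samples, and the CpG samples overlapped the unstimulated ones. These are transcript ratios, and surface protein was not measured here.

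Klf2 (chromosome 8, 72319033 to 72321656, plus strand) was the most abundant member in unstimulated cells and, against those cells, had the largest fall of the 9 with CpG and with CpG plus IFNα, though not with IFNα alone. Its level was 2340, 1377 and 1534 normalized CPM in unstimulated samples and 645.8, 553.3 and 730.3 with IFNα. CpG samples read 33.15, 37.07 and 29.95, and those with CpG plus IFNα 13.09, 15.87 and 15.42. All 4 groups were separate in every sample. Klf2 fell 2.73-fold with IFNα (log2 fold change -1.45, SE 0.14, adjusted p = 4.49e-10, edgeR), 52.8-fold with CpG (-5.72, SE 0.18, adjusted p = 8.26e-23) and 117-fold with both (-6.87, SE 0.20, adjusted p = 3.09e-24). It was 2.21-fold lower with CpG plus IFNα than with CpG (-1.15, SE 0.25, adjusted p = 0.00129).

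Unstimulated replicate 1 held the highest unstimulated value of 6 of the 9 members (Ccr7, Cxcr4, Gpr183, S1pr1, Cd69 and Klf2) and also the highest summed level of immediate-early genes, 11130 normalized CPM against 7940 and 10070. The calls that change without it are those of Ccr7 and S1pr1 given above. T cells also carry Klf2, S1pr1 and Ccr7 transcripts. Of 8 T cell marker genes in the table, Cd3g and Cd8a were at 0 in every sample, 5 others held at most 3 counts in any sample, and nearly all of the list's sum came from Lck, at 27.3 to 40.65 normalized CPM in unstimulated, 38.92 to 50.37 in IFNα, 2.14 to 8.99 in CpG and 3.27 to 5.65 in CpG plus IFNα samples. The 6 erythroid markers, mostly haemoglobin genes, ranged widely within groups, from 57.4 to 345 normalized CPM in unstimulated, 15.3 to 336 in IFNα, 4.99 to 60.8 in CpG and 5.65 to 72.0 in CpG plus IFNα samples, and 4 of the 4 tested were called lower with CpG and with both. Of marginal zone B cell markers, 2 of the 6 tested were called lower and 1 higher (Plac8) with IFNα, 3 were called lower with CpG and 2 with both, beside 4.07% lower and 4.56% higher, 25.5% and 25.6% of all tested genes. The list of 9 summed to 1093 to 1236, 3103 to 3201, 849.8 to 953 and 859.2 to 954.3 normalized CPM in the order of groups above, and Plac8 alone averaged 360.3, 2189, 47.96 and 287.3. Myeloid markers summed to at most 40.4 and natural killer cell markers to at most 5.29 in any sample. The part of these cells in the members' values was not tested.

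Between CpG plus IFNα and CpG, 1 member was called higher (Cd69) and 2 lower (Klf2 and S1pr4), and Cxcr4 passed the adjusted p but not the fold, beside 2.95% and 2.01% of all tested genes. When CpG plus IFNα was set against IFNα alone, 1 member was higher (Ccr7) and 7 were lower, with Cd69 the remaining member, beside 18.7% of tested genes called higher and 25.5% lower. The question of whether IFNα acts alike with and without CpG was addressed by the interaction term, the log2 effect of IFNα with CpG minus that without. Its part without CpG is a comparison with unstimulated cells, in which sorting, culture and stimulus cannot be told apart. The interaction was called for 4 members, 2 higher and 2 lower, where 3.09% and 3.17% of all tested genes were called.

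The interaction was 3.41 for Cd69 (SE 0.17, adjusted p = 9.5e-16, edgeR), from -1.53 without CpG to 1.88 with it. Of the immediate-early genes, 15 of 18 were called higher in the interaction, with a median of 3.37, made up of a median of -2.74 for IFNα without CpG and 0.21 with it. Between CpG plus IFNα and CpG, 1 of the 18 was called higher and 0 lower, near the 2.95% and 2.01% of all tested genes. The part of the immediate-early genes in the values of Cd69 and Ccr7 was not tested. For Ccr7 the interaction was 1.44 (SE 0.19, adjusted p = 1.87e-06), from -1.17 without CpG to 0.27 with it. The S1P receptors went the other way. For S1pr4 the interaction was -2.24 (SE 0.43, adjusted p = 0.000588), from 1.0 to -1.24. For S1pr1 it was -1.62 (SE 0.47, adjusted p = 0.0257), from 0.92 to -0.70, and this call was lost without CpG replicate 2 (-1.30, adjusted p = 0.138), the CpG sample in which S1pr1 was highest, and when all libraries were thinned to the smallest depth (-1.44, adjusted p = 0.136). No interaction was called for Klf2, which IFNα lowered in both settings (0.30, 95% confidence interval -0.29 to 0.90), or for Cxcr5 (0.20, -0.18 to 0.57), Cxcr4 (-0.64, -1.23 to -0.05), Ccr6 (0.94, -0.24 to 2.12) and Gpr183 (0.91, 0.03 to 1.79). Behind the wide interval of Ccr6 stand 3 to 7 counts in each CpG sample.

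**Figure D3:**
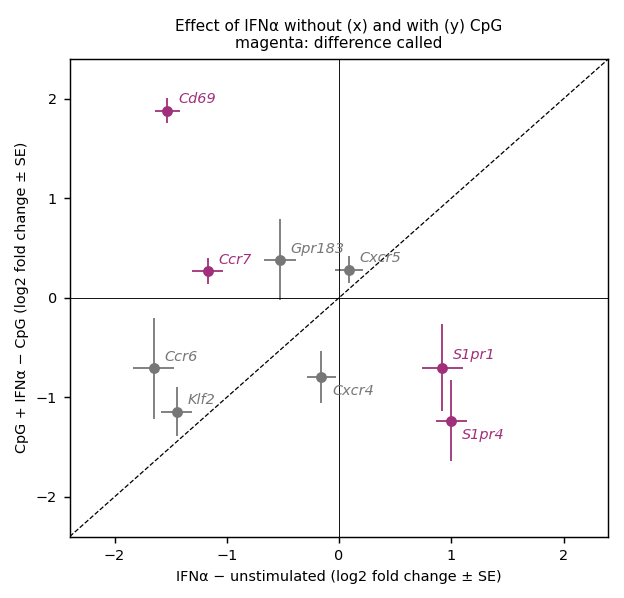
Log2 fold change by IFNα without CpG (x axis) and with CpG (y axis) for the 9 genes. Bars are approximate standard errors, the dashed line marks equal effects, and magenta marks genes whose difference was called. Cd69 (-1.53, 1.88) and Ccr7 (-1.17, 0.27) lie above the line, S1pr1 (0.92, -0.70) and S1pr4 (1.0, -1.24) below it, and Klf2 (-1.45, -1.15) near it.

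The wider set of homing and motility genes was taken as 8 lists by role, 152 genes in all without the members, of which 137 were in the table and 96 were tested. With CpG, 4 of the 96 were called higher (4.2%) and 61 lower (63.5%), beside 20.1% and 25.5% of all tested genes, with a median log2 fold change of -1.41. CpG plus IFNα gave 7 higher (7.3%) and 63 lower (65.6%) against unstimulated cells, beside 20.3% and 25.6%. IFNα alone gave 3 higher (3.1%) and 11 lower (11.5%), beside 4.56% and 4.07%, and added to CpG it gave 5 higher (5.2%) and 4 lower (4.2%), beside 2.95% and 2.01%. For the lists described next, the share of all tested genes called lower with CpG is likewise 25.5%. All of the genes called higher with CpG came from 2 lists, homing chemokines and adhesion genes.

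Of the chemokine genes, the ligands of these receptors, 3 had enough counts to be tested. Ccl3 and Ccl4, which encode inflammatory chemokines, rose with CpG, from 14.6 ± 11.6 to 294 ± 41.2 normalized CPM for Ccl3 and from 12.9 ± 12.4 to 57.5 ± 10.9 for Ccl4 (SD, n = 3 each). IFNα added to CpG raised Ccl4 further, to 194 ± 8.02 (log2 fold change 1.76, adjusted p = 1.45e-09, edgeR). Cxcl10, an interferon-induced chemokine, averaged 3.62 ± 3.09 normalized CPM in unstimulated, 59.5 ± 13.1 in IFNα, 2.23 ± 0.79 in CpG and 341 ± 37.1 in CpG plus IFNα samples. Among other chemokine receptors, Ccrl2, which binds chemerin, had 16 to 36 counts with IFNα and 16 to 28 with both, and 0 counts in each CpG sample.

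In the S1P list, 6 of 12 genes were tested, and 2 of the 6 fell with CpG, a share near that over all tested genes. They are Spns2, an S1P exporter, with 19 to 34 counts in unstimulated and at most 2 in CpG or CpG plus IFNα samples, and Plpp3, a lipid phosphatase that degrades S1P, with 14 to 18 and at most 2. Among 8 tested genes of the oxysterol pathway and other positioning receptors, 6 fell with CpG. Cnr2, the cannabinoid receptor CB2 that helps to hold B cells in place, went from 114 ± 1.78 to 5.85 ± 0.75 normalized CPM with CpG and to 2.28 ± 0.79 with both. Gpr18 averaged 108 ± 14.3 in unstimulated, 208 ± 29.5 in IFNα, 43.4 ± 5.37 in CpG and 33.1 ± 2.81 in CpG plus IFNα samples, and its interaction was called lower (-1.36, adjusted p = 3.56e-05, edgeR), as for S1pr1 and S1pr4. P2ry10 fell with CpG (-1.71, adjusted p = 4.17e-11). Ptger4, a prostaglandin E receptor, fell with IFNα (-2.15, adjusted p = 8.22e-06), and Lpar6, a lysophosphatidic acid receptor, rose (1.12, adjusted p = 0.0088).

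Of 12 tested adhesion genes, 8 fell with CpG and 2 rose. The share that rose is near the 20.1% of all tested genes called higher. Cd44, the hyaluronan receptor, rose from 134 ± 23.5 to 951 ± 6.49 normalized CPM with CpG (log2 fold change 2.83, adjusted p = 1.09e-19, edgeR) and was 711 ± 21.5 with both. Itgb1, the β1 integrin chain, rose from 23.5 ± 8.32 to 64.1 ± 3.12. The α4 chain gene Itga4 stood at 139 ± 18.4 in unstimulated and 13.9 ± 1.38 in CpG samples, and the β7 chain gene Itgb7 went from 107 to 161 counts in unstimulated to 1 to 3 counts in samples with CpG. The α4 and β7 chains together form the gut-homing integrin. Of 27 genes for integrin activation and motility, all tested, 18 fell with CpG; the actin regulator Coro1a fell from 1789 ± 95.2 to 254 ± 12.2, and again to 124 ± 3.19 with IFNα added (-1.03, adjusted p = 1.23e-08), and Sipa1, which inactivates Rap GTPases, fell by 2.80 on the log2 scale with CpG (fitted -2.80, adjusted p = 8.45e-19).

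Of 21 tested genes that transmit or end G protein signals, 14 fell with CpG. Rgs2, a negative regulator of G protein signalling, averaged 725 ± 175 normalized CPM in unstimulated, 118 ± 7.11 in IFNα, 8.97 ± 2.88 in CpG and 3.72 ± 1.06 in CpG plus IFNα samples. Rgs1, which dampens chemokine receptor signals in B cells, had 37 to 181 counts in unstimulated, 0 to 3 in IFNα, 0 in CpG and 0 to 2 in CpG plus IFNα samples. Arhgef1, a guanine nucleotide exchange factor downstream of G proteins, fell with CpG (log2 fold change -2.64, adjusted p = 2.83e-17, edgeR), while Gng2 had a negative interaction (-1.05, adjusted p = 0.0258).

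Among 17 KLF, FOXO and related regulators, all tested, 12 fell with CpG, as did Klf2. Klf4 went from 393 ± 126 normalized CPM in unstimulated samples to 14.4 ± 4.67 in IFNα, 1.73 ± 1.60 in CpG and 2.25 ± 1.66 in CpG plus IFNα samples. Klf6 averaged 711 ± 250, 107 ± 16.6, 26.1 ± 4.74 and 18.8 ± 1.46 in the same order. Klf13 fell with CpG (log2 fold change -3.26, adjusted p = 2.31e-20, edgeR), from 780 ± 114 to 81.5 ± 2.87, and IFNα alone left it at 627 ± 53.9. Klf7 was lower with CpG plus IFNα than with CpG (-1.42, adjusted p = 0.00322), as was Klf2, and Mef2c was lower with both than with IFNα alone (-2.43, adjusted p = 1.08e-18).

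**Figure D4:**
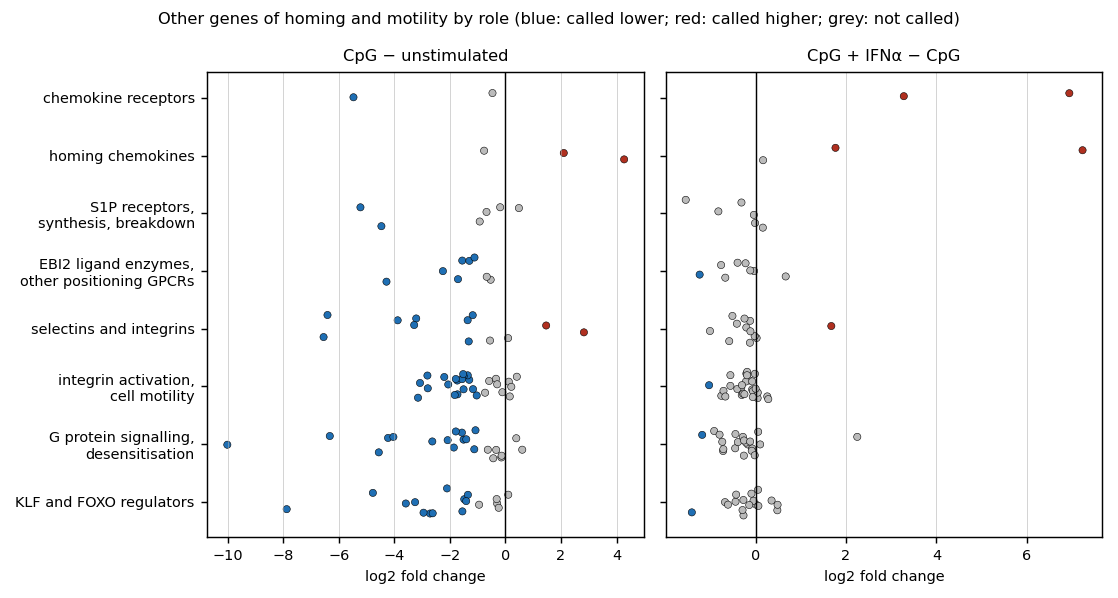
Log2 fold changes (x axis, edgeR) of the tested genes in 8 role lists (rows; each point is a gene, spread vertically for legibility) for CpG against unstimulated cells and for CpG plus IFNα against CpG; blue was called lower, red called higher, grey neither. With CpG, 61 of 96 points are blue and 4 red, and with IFNα added 4 are blue and 5 red; the points farthest from 0 include genes with 0 counts in a group, such as Rgs1 and Ccrl2, whose fitted value depends on the prior count.

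The genes whose profiles over the 12 samples were nearest to each member were found as a description. The measure was the root-mean-square difference of log2 normalized CPM after each gene's own mean was removed. A prior count of 2 was added before the log2 step, which flattens differences near 0. The nearest to Ccr7 were Pim3 (0.21), Snhg1 and Abt1. Those to Cxcr5, the member with the smallest spread over the samples (SD 0.83 on the log2 scale), were Spi1, which encodes the transcription factor PU.1 (0.12), Il2rg, the common cytokine receptor chain (0.13), and Hcls1 (0.14). The nearest to Cxcr4 were Myl12b (0.23), Sbk1 and Pnrc1, and those to Ccr6 were Fcgrt (0.32), Myadm and Pirb. Fcgrt averaged 0.24 normalized CPM with CpG and 0 with both agents, against 3.12 and 1.82 for Ccr6. Nearness between genes with such low values therefore does not mean an equal fold change. Gpr183 was nearest to Fry (0.27), Lrrk2 and Tuba1a. Klf2 lay nearest to the integrin gene Itgb7 (0.38), H2-DMa and Crip1.

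The S1P receptors lay near each other: of 9430 other genes, S1pr4 ranked 5 from S1pr1 and S1pr1 ranked 12 from S1pr4, at a distance of 0.53. S1pr1 was nearest to Pik3ip1 (0.47), H2-Eb2 and Il16, and S1pr4 to Snn (0.33), H2-Eb2 and AB124611, so that the MHC class II gene H2-Eb2 stood near both. Cd69 was nearest to Cd200 (0.51), Dusp5 and Gm37558. For Ccr7 the nearest other member was Cd69, which ranked 7665 of 9430, at a distance of 1.47. Cxcr5 also lay far from the other members, the nearest being Cd69 at rank 3916 (0.82). From Cd69 the nearest member, Cxcr5, ranked 337. For Cxcr4, Ccr6, Gpr183 and Klf2 the nearest member ranked 144, 77, 57 and 47.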

How the data were processed

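BRB-seq, a bulk 3′ method in which sample barcodes and UMIs are read before the cDNA, was applied to 12 samples. Per the study's methods and the submitters' processing notes, the authors extracted UMIs (UMI-tools 1.1.2), trimmed reads (Trim Galore 0.6.7), aligned them to GRCm38 (HISAT2 2.2.1), assigned them to genes (featureCounts 2.0.1) and deposited UMI counts per gene, not normalized. Reads lie near transcript ends, so counts do not scale with gene length, and low counts limit precision.

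Columns were matched to samples by name. All 4 groups were fitted together in edgeR 4.0.16 (R 4.3.3), with TMM scaling, its expression filter by group and 8 residual degrees of freedom; DESeq2 1.42.0 served as an alternative. A gene was called where its log2 fold change passed 1 in size and its adjusted p lay under 0.1. The test was checked on simulated counts. The 9 members and all lists were chosen with earlier results of these data known. All members are named, with, per role list and comparison, up to 2 genes called higher and 2 lower with the smallest p, and each member's 3 nearest profiles. Some items under this rule are not reported here. The barcode list gave no values. Gene positions are from GENCODE (GRCm38) and promoters from RefSeq.

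Replicate counts differed by 1.9 to 6.31 times the sampling noise (chi-square over degrees of freedom, 12 pairs), so no library was a copy of another. Alternatives were other scalings and filters, DESeq2, other thresholds, only the groups compared, a replicate block, each sample left out, counts drawn down to the smallest total, and removal of ribosomal RNA and mitochondrial genes.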

Additional observations from a re-analysis of the deposited data

Results flagged for a closer look

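The effect of IFNα on 4 of the 9 genes differed between cells with and without CpG by the interaction term of the edgeR fit. The difference (effect with CpG minus effect without) was 3.41 on the log2 scale for Cd69 (adjusted p = 9.5e-16), which was lower in 3 of 3 IFNα samples than in every unstimulated sample and higher in 3 of 3 CpG plus IFNα samples than in every CpG sample. The immediate-early genes, high in unstimulated cells, had 15 of 18 called higher in the same interaction (median 3.37), where 3.09% of all tested genes were called higher. Between CpG plus IFNα and CpG, 1 of the 18 was called higher and 0 lower, with a median of 0.21. These counts are near the 2.95% and 2.01% of all tested genes. The part of the immediate-early genes was not tested. The difference was 1.44 for Ccr7 (adjusted p = 1.87e-06), -2.24 for S1pr4 (adjusted p = 0.000588) and -1.62 for S1pr1 (adjusted p = 0.0257). Ccr7 in 3 of 3 and S1pr4 in 3 of 3 IFNα samples lay outside the unstimulated range. In the 6 samples with CpG, S1pr1 stood between 4.63 and 17.11 normalized CPM, and CpG overlapped CpG plus IFNα. The S1pr1 result was lost without CpG replicate 2 (-1.30, adjusted p = 0.138) and when all libraries were thinned to the smallest depth (-1.44, adjusted p = 0.136).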

How the results depend on the processing

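Over 23 other settings, 1193 of 1231 values of the members kept their direction and their side of the call, 19 lost a call, 15 gained one and 4 changed sign. The counts of members called that changed were few. For IFNα against unstimulated cells, 1 member was called higher without a filter and with counts drawn down (S1pr4 both times), 0 to 1 with a sample left out (1 in 11 of 12 such fits), and 0 were called lower at a log2 fold change over 2 and 3 to 4 with a sample left out. For CpG plus IFNα against unstimulated cells, 1 was higher without a filter (Ccr7, 1.02), and 0 to 1 with a sample left out. For CpG plus IFNα against CpG, 0 were higher and 0 lower at a log2 fold change over 2, and 1 to 2 were lower with a sample left out. For the interaction, 1 was higher and 1 lower at that threshold, 1 was lower with counts drawn down (S1pr1 then -1.44, adjusted p = 0.136, edgeR), and 1 to 2 were lower with a sample left out. Signs changed for values that had not been called: with a sample left out, Cxcr4 with IFNα ranged from -0.27 to 0.045 (without unstimulated replicate 1) and Cxcr5 from -0.001 (without IFNα replicate 3) to 0.23, and with counts drawn down the interaction was 0.15 for Cxcr4 (-0.64 with all counts) and -0.20 for Klf2 (0.30). The causes were not tested.

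Same-numbered samples of different groups deviated together weakly, and more so among the stimulated groups (9 pairs, r from 0.01 to 0.21) than with unstimulated samples (9 pairs, -0.07 to 0.05). Of the 18 same-number pairs 5 were over 0.1, pairs of different numbers ranged from -0.20 to 0.06 (36 pairs), and 10 of 12 samples were nearest to their own number. This is a hint from the data, not the design. No source used here says what a number marks, and not every pair passed 0.1, so the samples were not treated as paired. With the replicate block IFNα against unstimulated cells had 0 members higher and 4 lower, CpG against unstimulated cells 0 and 8, CpG plus IFNα against unstimulated cells 0 and 8, against CpG 1 and 2 and against IFNα 1 and 7, while the interaction had 2 and 2, as without it. Depth limits Ccr6, Gpr183, S1pr1 and S1pr4 in samples with CpG, where few counts were left.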
